A study of Homo sapiens with 4 samples.

Results

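The Wnt genes of HK-2 cells, a human kidney proximal tubule cell line, were examined after exposure to transforming growth factor β1 (TGF-β1), a cytokine that drives matrix production in tubular cells. They were chosen by name: every protein-coding gene whose symbol starts with WNT or FZD and a digit, DKK1 to DKK4, the SFRP genes, LRP5, LRP6, ROR1, ROR2, RYK, AXIN1, AXIN2, RNF43 and ZNRF3. The rule found 38 of the 25609 genes of the table: 13 ligands, 9 Frizzled receptors, 5 other receptors, 7 secreted antagonists and 4 genes of a feedback class. That class held AXIN1, AXIN2, RNF43 and ZNRF3. The antisense gene WNT5A-AS1 also bears a matching name and was left out because it codes for no protein. WNT1, WNT3A, WNT8A, WNT8B, WNT9B, WNT16, FZD10 and SFRP5 were not analysed here.

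Wnt ligands are secreted lipid-modified proteins that bind Frizzled receptors on the cell surface. Together with the co-receptors LRP5 or LRP6 they stop the destruction complex from degrading β-catenin, which then acts with TCF and LEF factors in the nucleus. WNT5A, WNT5B and WNT11 are better known for signals that do not pass through β-catenin, often with ROR or RYK receptors. Dickkopf (DKK) proteins block LRP5 and LRP6 or modulate the pathway, SFRP proteins bind ligands, and AXIN2, RNF43 and ZNRF3 are switched on by β-catenin in many tissues and restrain it. In the kidney, Wnt signals direct tubule formation in the embryo and are reactivated in tubules after injury and in fibrosis.

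All 4 libraries came from wild-type HK-2 cells, an established and immortalised line, kept without serum for 24 h. In the 2 TGF-β1 libraries the cytokine had been present for 24 h at 20 ng/mL, and the 2 controls carry no TGF-β1 in their labels. Both groups were taken to have had 4-thiouridine, a uridine analogue built into new RNA, at 100 µM for the last 20 h, because a common protocol text stands for all samples. Total RNA was sequenced with a strand-preserving kit, and the authors deposited RPKM values (reads per kilobase of exon, scaled by library size). The labels do not say that the libraries of a group came from separate cultures, and the spread that p-values rest on may therefore be technical: they speak of these libraries alone.

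Reads recovered from the RPKM values summed to 3346018 to 5472053 per library. The TGF-β1 label was checked with SMAD7, which stood at 8.35 and 8.96 RPKM in the controls and at 40.0 and 35.2 RPKM with TGF-β1. Of 8 proximal tubule markers PAX8 stood at 43.5 RPKM in the controls and fell to 15.1 RPKM, GGT1 was at 20.0 and 17.9 RPKM, and CUBN, AQP1, ANPEP and SLC34A1 had at most 5 reads in any library. The proximal tubule markers summed to 72.1 and 73.6 RPKM in the controls against 38.1 and 36.6 RPKM, with 1 of 3 tested markers called. Of 4 epithelial markers KRT8 and KRT18 were called higher and EPCAM lower. CDH1 was at 1.22 and 0.947 RPKM in the controls against 0.604 and 0.499 RPKM, and was not called (limma adjusted p = 0.251). The sum of the 4, mostly keratin, was 224 and 245 RPKM in the controls against 332 and 368 RPKM. The 2 endothelial markers in the table had 0 reads, the 2 markers of distal segments at most 1 read, and the leukocyte markers at most 13. Among fibroblast markers COL1A2 had 0 reads, and LUM was at 12.5 RPKM in the controls and 7.75 RPKM with TGF-β1, which made up most of the list's sum of 12.3 and 13.0 RPKM against 8.97 and 7.02 RPKM. These shifts in tubular and epithelial markers accompany each result that follows, and their part in the results was not tested. In such bulk RNA, fewer cells of a kind and less RNA per cell cannot be told apart.

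With TGF-β1 the ligands WNT5B, WNT9A and WNT5A rose by 5.72-fold to 10.2-fold in mean RPKM, and WNT7B, the most abundant ligand of the controls, fell to 0.442 of its level. Among the receptors FZD2 rose and LRP5 fell. The antagonist DKK1 fell as well. Of the 38 genes, 22 had a mean RPKM of at least 0.5 and were tested with limma on log2(RPKM + 0.5), a scale that understates the change of weakly expressed genes. At an adjusted p (Benjamini-Hochberg over 16590 genes) below 0.05, 7 of the 22 were called changed, or 31.8%, against 9.12% of all genes tested. WNT5A and WNT9A passed the filter only through the group where they were high, so the share is no support for a Wnt response. Of the 22, 4 were called higher with TGF-β1, against 6.12% of all genes tested, and 3 lower, against 3.0%. With no filter 5 of the 38 were called, 2 higher and 3 lower, against 3.82% of all 25609 genes called. The members had a median log2 fold change of 0.0295, close to the 0.0265 of all genes, and a median absolute value of 0.42 against 0.26. In 13 of the 22 genes (59.1%) the libraries of the groups did not overlap, which is close to the 54.1% of all genes. With limma voom on the recovered reads, a fit that weights each value by the precision of its count, 11 of 22 were called, where 20.3% of all genes were. WNT5A and WNT9A also enter the median absolute value and the voom count, which are no support for a Wnt response either.

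The authors' scaling bears on the balance of rises and falls. Their library sizes were 1.013 and 0.976 times the recovered reads in the controls and 0.893 and 0.861 times in the TGF-β1 libraries. Over all genes, 1015 were called higher and 498 lower. With RPKM scaled instead by total recovered reads, 654 were called higher and 889 lower, with the median log2 fold change of all genes shifted by -0.15. After quantile normalisation the split was 697 to 687. Of the 7 called Wnt genes, FZD2 lost its call under these scalings and the other 6 kept theirs.

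**Figure D1:**
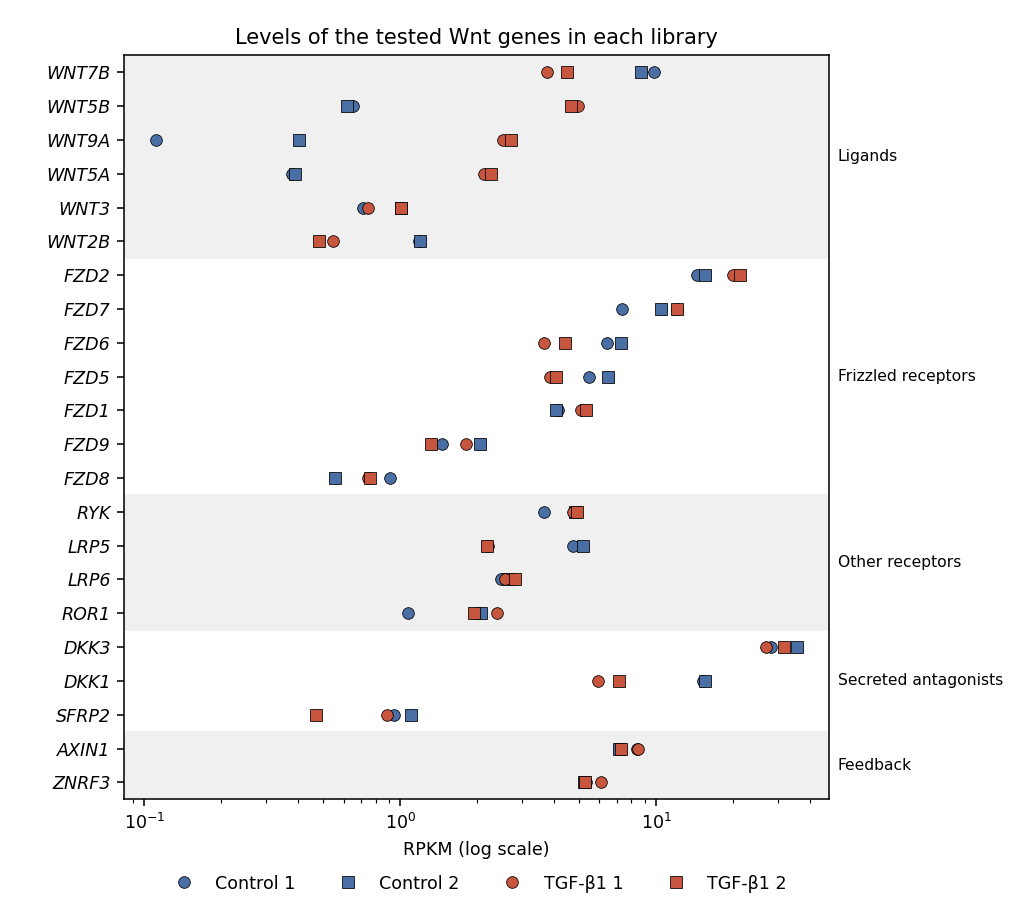
RPKM of the 22 tested Wnt genes in each library, on a logarithmic axis, by role. Blue marks the controls, red TGF-β1, circles replicate 1 and squares replicate 2. WNT5B, WNT9A and WNT5A lie to the right with TGF-β1, and WNT7B, LRP5 and DKK1 to the left.

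On the scale of log2(RPKM + 0.5), the largest log2 fold change of a tested Wnt gene was that of the ligand WNT5B. This rank depends on the scale, and WNT9A had the larger ratio of mean RPKM, 10.2-fold against 7.57-fold. Its log2 fold change was also larger with 0.1 added in place of 0.5 (3.05 against 2.74) and with voom (3.52 against 2.92). Of the 13 ligands, 6 were tested and 4 called, 3 higher and 1 lower, where 9.12% of all genes tested were called. WNT5A and WNT9A are among the 4 and passed the filter only through their TGF-β1 libraries. The count therefore does not rank the roles. WNT7B, a ligand that signals through β-catenin and shapes the medulla of the developing kidney, stood at 9.84 and 8.74 RPKM in the controls and at 3.74 and 4.48 RPKM with TGF-β1. Both TGF-β1 libraries lay well below both controls, and the mean fell from 9.29 ± 0.776 to 4.11 ± 0.522 RPKM (SD, n = 2 per group). The log2 fold change was -1.09 (95% confidence interval -1.45 to -0.73, limma adjusted p = 0.0158). Without the variance trend in limma the adjusted p was 0.0592. The gene (ENSG00000188064.9) lies on the minus strand of chr22:45920362-45977129 in hg38.

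WNT5B, a ligand of the β-catenin-independent branch, was at 0.651 and 0.618 RPKM in the controls and at 4.95 and 4.66 RPKM with TGF-β1. These values rest on 9 and 12 reads against 88 and 94. The groups stood far apart and each pair of libraries was close together. The mean rose 7.57-fold, from 0.634 ± 0.0233 to 4.80 ± 0.201 RPKM (SD, n = 2 per group), with a log2 fold change of 2.22 (1.75 to 2.70, limma adjusted p = 0.00510). This was the Wnt gene with the smallest adjusted p, and it was called under all 14 alternatives tried. WNT5B (ENSG00000111186.12) lies on the plus strand of chr12:1529891-1647243.

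WNT5A, the paralogue of WNT5B and the ligand best known for ROR-dependent signals, was at 0.379 and 0.388 RPKM in the controls and at 2.13 and 2.25 RPKM with TGF-β1, from 9 and 13 reads against 65 and 78. As for WNT5B, the 2 libraries of each group nearly coincided and the groups did not overlap. The mean rose 5.72-fold, from 0.384 ± 0.00675 to 2.19 ± 0.0871 RPKM (SD, n = 2 per group), with a log2 fold change of 1.61 (1.02 to 2.19, limma adjusted p = 0.0196). The call was lost without TGF-β1 replicate 1 (adjusted p = 0.0880) or replicate 2 (0.107), and with no expression filter (0.0542). WNT5A (ENSG00000114251.14) lies on the minus strand of chr3:55465715-55490539.

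WNT9A, a ligand expressed in developing joints and liver, had 1 read in control replicate 1 and 7 in control replicate 2, against 41 and 50 reads with TGF-β1. In RPKM these were 0.111 and 0.402 against 2.51 and 2.70. The controls differed between themselves by several-fold at these few reads, yet both lay below both TGF-β1 libraries. With control means of 0.257 and 0.384 RPKM, WNT9A and WNT5A reached the filter of 0.5 RPKM only through their TGF-β1 libraries. The 10.2-fold ratio of WNT9A's means was 6.49 without control replicate 1 and 23.4 without control replicate 2. The log2 fold change was 2.06 (1.33 to 2.80, limma adjusted p = 0.0190), and the ratio of pooled reads per library size was 10.4 (exact 95% interval 5.05 to 24.8, counting error only). Leaving out TGF-β1 replicate 1 or 2 took the adjusted p to 0.0657 or 0.0824. WNT9A (ENSG00000143816.7) lies on the minus strand of chr1:227918656-227947898.

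The other tested ligands were not called. WNT2B stood at 1.19 RPKM in both controls and at 0.546 and 0.482 RPKM with TGF-β1, from 50 and 70 reads against 28 and 28. The TGF-β1 libraries lay below the controls, with a log2 fold change of -0.74 (-1.36 to -0.11, limma adjusted p = 0.143), and voom on the recovered reads gave an adjusted p of 0.000413. Its exons share 2661 bases, 21.2% of their length, with ST7L on the opposite strand. Reads of these 2 genes may be mixed, since the counting used a strand setting not given in the sources used here. ST7L had 26 and 54 reads in the controls against 40 and 57 with TGF-β1. WNT3, a β-catenin ligand, overlapped between groups, at 0.714 and 1.01 RPKM in the controls and 0.749 and 1.00 RPKM with TGF-β1.

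Because RPKM is a level per length, the ligands could be set against each other within a library. For this the 0.5 read that each of the authors' values carries beyond the counted reads was taken off. WNT7B made up 75.8% and 71.3% of the summed ligand RPKM in the controls against 25.3% and 28.2% with TGF-β1. WNT5B went from 4.76% and 4.85% to 33.5% and 29.4% and ranked first in both TGF-β1 libraries, though close to WNT7B. The ratio of WNT5B to WNT7B was 1.32 and 1.04 there, from 88 and 94 reads against 78 and 106. WNT9A took 0.574% and 3.07% in the controls against 16.9% in both TGF-β1 libraries, and WNT5A 2.77% and 3.06% against 14.4% and 14.2%. The summed level of all 13 ligands moved much less than its parts, from 12.9 and 12.2 RPKM to 14.7 and 15.8 RPKM. These shares describe the libraries, and differences between ligands were not tested.

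**Figure D2:**
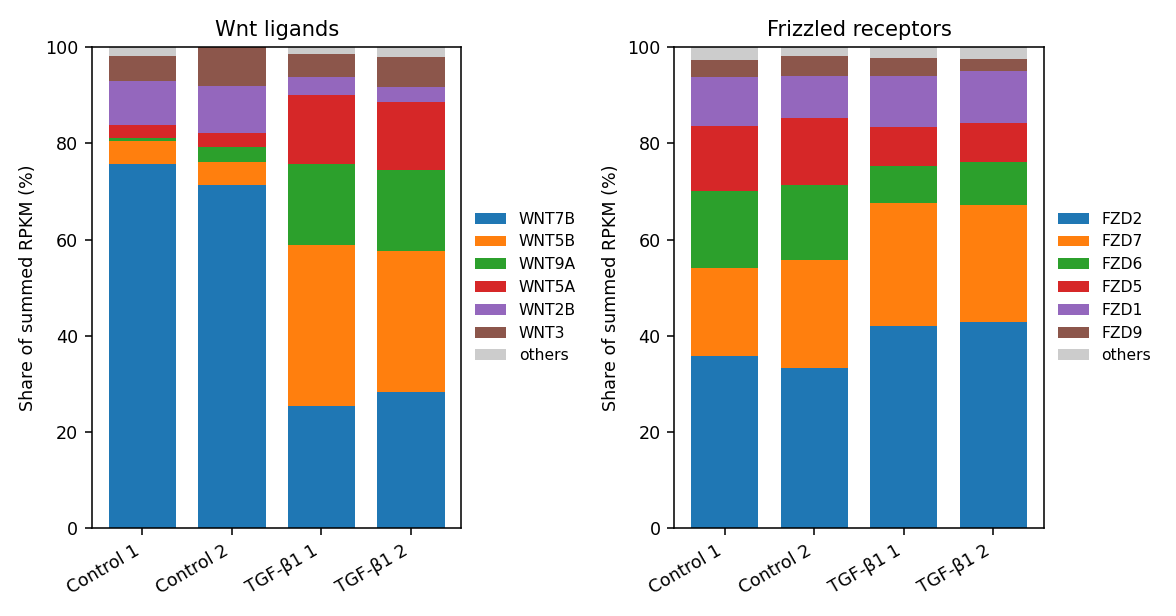
Share of each gene in the summed RPKM of the 13 Wnt ligands (left) and the 9 Frizzled receptors (right), in percent, with a stacked bar for each library. WNT7B fills over 70% of the ligand bars of the controls and under 29% of those with TGF-β1, where WNT5B, WNT9A and WNT5A take its place, while the Frizzled bars change less.

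The start regions of the 2 WNT5 genes are shown because these paralogues rose together and each has more than a single RefSeq start. A window runs from 250 bases before to 50 bases after a start (RefSeq, GRCh38.p14) and is read 5′ to 3′ on the gene's strand. It was searched on both strands for CTTTGA, the core read by TCF and LEF factors, for CAGAC, a single SMAD box, and for GTCTAGAC, a paired SMAD box that holds neither of the other words. Capitals mark matches. WNT5A windows are at chr3:55487257-55487556 and chr3:55481349-55481648, both on the minus strand, and WNT5B windows at chr12:1616806-1617105 and chr12:1628981-1629280, both on the plus strand.
WNT5A window 1: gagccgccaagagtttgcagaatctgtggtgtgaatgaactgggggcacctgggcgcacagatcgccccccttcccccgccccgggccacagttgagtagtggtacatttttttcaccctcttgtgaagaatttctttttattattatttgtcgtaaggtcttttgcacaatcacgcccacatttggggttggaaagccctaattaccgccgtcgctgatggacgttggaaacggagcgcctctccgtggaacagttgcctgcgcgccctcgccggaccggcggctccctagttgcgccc
WNT5A window 2: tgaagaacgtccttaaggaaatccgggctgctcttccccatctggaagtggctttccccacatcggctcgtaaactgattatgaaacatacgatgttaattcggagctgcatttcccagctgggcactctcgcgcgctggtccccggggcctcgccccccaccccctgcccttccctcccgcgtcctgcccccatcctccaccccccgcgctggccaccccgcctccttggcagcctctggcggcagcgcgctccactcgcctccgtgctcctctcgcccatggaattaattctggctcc
WNT5B window 1: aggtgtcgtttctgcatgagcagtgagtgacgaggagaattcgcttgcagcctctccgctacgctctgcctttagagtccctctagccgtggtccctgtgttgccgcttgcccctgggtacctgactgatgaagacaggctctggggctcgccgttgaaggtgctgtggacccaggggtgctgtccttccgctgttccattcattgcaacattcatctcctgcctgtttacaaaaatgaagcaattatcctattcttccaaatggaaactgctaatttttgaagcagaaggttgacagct
WNT5B window 2: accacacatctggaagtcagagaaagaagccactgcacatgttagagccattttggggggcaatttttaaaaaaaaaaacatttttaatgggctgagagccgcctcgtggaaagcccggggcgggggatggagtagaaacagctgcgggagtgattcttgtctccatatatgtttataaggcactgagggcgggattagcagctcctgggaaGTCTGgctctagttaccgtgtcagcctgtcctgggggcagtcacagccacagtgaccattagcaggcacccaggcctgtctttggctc
The only match among these 4 windows is CAGAC in WNT5B window 2, on the opposite strand, with its first base 38 bases before the start. CAGAC occurs in 45.3% of all 35116 RefSeq windows and in 15 of 28 windows of the Wnt genes, which came from 24 genes, so a match is common. GTCTAGAC occurs in 0.202% of all windows and in 0 of these 28. The values are per gene, and which start was used was not measured. Letters missing from a window say nothing of binding elsewhere.

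Frizzled receptors, the seven-pass membrane proteins that bind Wnt ligands, shifted less than WNT5B or WNT7B where tested. Of 9 genes 7 were tested and 1 was called, or 14.3%, against 9.12% of all genes tested. FZD2, a receptor for WNT5A-type and other ligands and the most abundant Frizzled of these cells, stood at 14.5 and 15.5 RPKM in the controls and at 19.9 and 21.3 RPKM with TGF-β1. Both TGF-β1 libraries were above both controls, and the mean rose 1.38-fold, from 15.0 ± 0.715 to 20.6 ± 0.981 RPKM (SD, n = 2 per group). The log2 fold change was 0.45 (0.23 to 0.67, limma adjusted p = 0.0409). This was the least firm of the 7 calls: it held under 6 of 14 alternatives, and was lost when any library was left out (adjusted p 0.0611 to 0.196) and with RPKM scaled by total reads (log2 fold change 0.27, adjusted p = 0.101). FZD2 (ENSG00000180340.6) lies at chr17:44557459-44559570, plus strand.

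FZD7, a receptor active in β-catenin signalling and the second in abundance, was at 7.37 and 10.4 RPKM in the controls and at 12.1 RPKM in each TGF-β1 library. The TGF-β1 libraries were above both controls, but control replicate 1 stood apart from replicate 2, and the gene was not called (log2 fold change 0.44, -0.01 to 0.88, limma adjusted p = 0.205). Without control replicate 2 the log2 fold change was 0.67 (adjusted p = 0.0412) and without control replicate 1 it was 0.20 (0.378), and voom gave an adjusted p of 0.0345. FZD1 likewise had higher values with TGF-β1, 5.06 and 5.29 RPKM against 4.13 and 4.05 RPKM, and was not called (adjusted p = 0.227, limma).

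FZD6, a receptor tied to planar cell polarity, went the other way, at 6.42 and 7.30 RPKM in the controls and 3.64 and 4.41 RPKM with TGF-β1. The groups did not overlap, and the log2 fold change of -0.70 (-1.09 to -0.32) missed the threshold (limma adjusted p = 0.0548). It passed under 4 of 14 alternatives, among them voom (0.00131) and total-read scaling (0.0266). FZD5, which couples to β-catenin, had a like pattern, 5.47 and 6.45 RPKM in the controls against 3.86 and 4.07 RPKM, with a log2 fold change of -0.53 (-0.90 to -0.17, limma adjusted p = 0.0920). FZD8 and FZD9 were weak and overlapped between the groups, at 0.554 to 0.915 RPKM and 1.32 to 2.05 RPKM over the 4 libraries.

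As a share of the summed Frizzled RPKM, FZD2 took 35.9% and 33.2% in the controls against 42.1% and 42.9% with TGF-β1. FZD6 took 15.9% and 15.7% in the controls against 7.66% and 8.87%, and FZD5 13.6% and 13.9% against 8.15% and 8.19%. The ratio of FZD2 to FZD6 was thus 2.25 and 2.12 in the controls against 5.49 and 4.83 with TGF-β1. The summed level of the 9 receptors was 40.1 and 46.4 RPKM in the controls and 47.1 and 49.5 RPKM with TGF-β1.

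Among the co-receptors LRP5 and LRP6, which act alongside Frizzleds in β-catenin signalling, only LRP5 was called. LRP5 was at 4.71 and 5.16 RPKM in the controls and at 2.21 and 2.19 RPKM with TGF-β1. The TGF-β1 libraries nearly coincided and lay below both controls, and the mean fell from 4.94 ± 0.317 to 2.20 ± 0.0125 RPKM (SD, n = 2 per group). The log2 fold change was -1.01 (-1.40 to -0.62, limma adjusted p = 0.0225), and the call was lost whichever library was left out (adjusted p 0.0599 to 0.0904). LRP5 (ENSG00000162337.11) lies on the plus strand of chr11:68312609-68449275.

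LRP6 overlapped between the groups, at 2.47 and 2.62 RPKM in the controls and 2.57 and 2.80 RPKM with TGF-β1 (log2 fold change 0.07, -0.37 to 0.50, limma adjusted p = 0.860). The ratio of LRP5 to LRP6 within a library was 1.91 and 1.97 in the controls against 0.854 and 0.777 with TGF-β1, so that the order of the pair was turned. The difference between the 2 genes' fold changes was not tested. RYK, an atypical kinase that binds Wnt ligands, was at 3.65 and 4.80 RPKM against 4.74 and 4.90 RPKM, and ROR1, a receptor for WNT5A, at 1.08 and 2.08 RPKM against 2.38 and 1.94 RPKM. Both overlapped between the groups (limma adjusted p = 0.572 and 0.487). ROR2, the other WNT5A receptor of this family, had 0 reads in all 4 libraries.

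**Figure D3:**
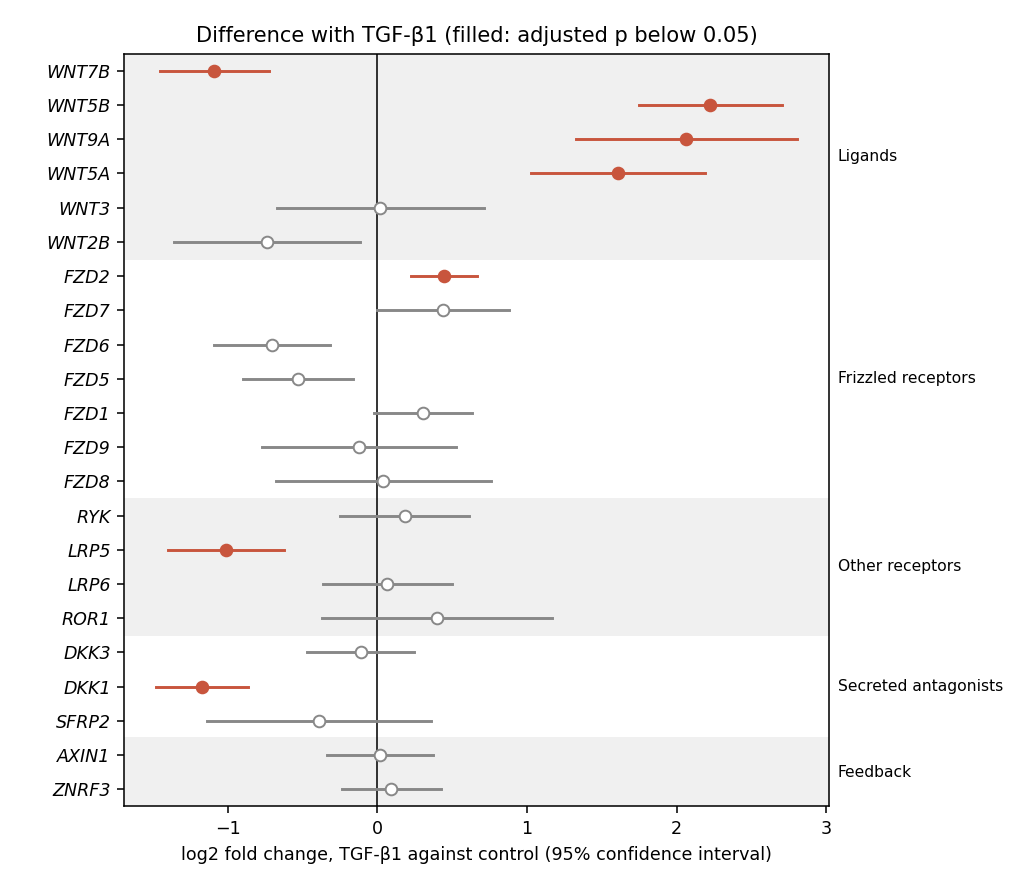
Log2 fold change on log2(RPKM + 0.5), TGF-β1 against control, of the 22 tested Wnt genes with 95% confidence intervals from limma. Filled red points passed an adjusted p of 0.05. Of the 7 filled points 4 are above 0 (WNT5B, WNT9A, WNT5A and FZD2) and 3 below (WNT7B, LRP5 and DKK1).

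Secreted antagonists were dominated by DKK3 and DKK1. DKK1, which binds LRP5 and LRP6 and blocks β-catenin signalling, stood at 15.2 and 15.5 RPKM in the controls and at 5.94 and 7.17 RPKM with TGF-β1. The controls were nearly equal, and the TGF-β1 libraries were both far below them. The mean fell from 15.3 ± 0.217 to 6.56 ± 0.868 RPKM (SD, n = 2 per group), with a log2 fold change of -1.17 (-1.48 to -0.86, limma adjusted p = 0.00884). The call held under 13 of 14 alternatives and was lost without the variance trend (adjusted p = 0.0515). Of its exons 9.61% overlap the antisense gene PRKG1-AS1. DKK1 (ENSG00000107984.9) lies on the plus strand of chr10:52314296-52318042.

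The RefSeq start window of DKK1 (chr10:52314031-52314330, plus strand, GRCh38.p14) is shown because DKK1 is itself a target of β-catenin in many cells. Of the 28 Wnt windows only this holds the TCF and LEF core. These windows cover 24 of the 38 genes. The other genes, with FZD2 and WNT7B among them, had no window and were not searched. Capitals mark CTTTGA and CAGAC on either strand.
DKK1: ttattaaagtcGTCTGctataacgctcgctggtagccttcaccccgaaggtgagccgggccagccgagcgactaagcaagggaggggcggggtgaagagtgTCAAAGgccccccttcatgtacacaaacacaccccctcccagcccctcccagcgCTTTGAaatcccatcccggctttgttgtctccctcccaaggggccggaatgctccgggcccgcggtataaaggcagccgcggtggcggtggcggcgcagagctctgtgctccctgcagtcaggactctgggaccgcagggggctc
CTTTGA matches at 95 bases before the start, and on the opposite strand (TCAAAG) at 149 bases before it. CAGAC matches on the opposite strand (GTCTG) at 239 bases before the start. CTTTGA occurs in 12.9% of all RefSeq windows, against 3.57% of the Wnt windows.

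DKK3, a divergent member of the Dickkopf family that does not block LRP6 as DKK1 does, was the most abundant of all 38 genes, at 28.2 and 35.4 RPKM in the controls and 26.9 and 31.6 RPKM with TGF-β1. The groups overlapped (log2 fold change -0.11, -0.47 to 0.24, limma adjusted p = 0.684). The ratio of DKK1 to DKK3 was 0.537 and 0.436 in the controls against 0.219 and 0.225 with TGF-β1. SFRP2, a ligand-binding antagonist, was at 0.943 and 1.10 RPKM against 0.888 and 0.470 RPKM, from 4 to 10 reads per library, and was not called (adjusted p = 0.487, limma).

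The feedback class had 2 tested genes, AXIN1 and ZNRF3, of which only ZNRF3 is among those switched on by β-catenin. Of the 2, 0 were called by limma, against 9.12% of all genes tested, and 0 by voom, against 20.3%. Neither had an unadjusted p under 0.05. With 2 genes such a count is no result about feedback. AXIN1, the scaffold of the destruction complex, was at 8.41 and 7.15 RPKM in the controls and 8.50 and 7.28 RPKM with TGF-β1 (log2 fold change 0.02, -0.33 to 0.37, limma adjusted p = 0.945). ZNRF3, a ubiquitin ligase that removes Frizzleds from the membrane, was at 5.31 and 5.24 RPKM against 6.06 and 5.29 RPKM (log2 fold change 0.09, -0.24 to 0.43, limma adjusted p = 0.721). Both overlapped between the groups. AXIN2, the feedback gene most used as a readout of β-catenin activity, had 1 and 2 reads in the controls against 1 and 4 with TGF-β1, a ratio of 1.52 with an exact 95% counting interval of 0.296 to 9.80. A difference in AXIN2 was not detectable at this depth.

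The remaining 16 genes, AXIN2 among them, lay below the filter and were not tested. RNF43, a ubiquitin ligase related to ZNRF3, had 11 reads in each control and 6 in each TGF-β1 library, a ratio of 0.498 (0.225 to 1.05). Its exons are largely shared with other genes, 57.6% with AC004687.2 on the same strand and 20.3% with TSPOAP1-AS1 on the opposite strand, so its count is uncertain. FZD4, a receptor for norrin as well as Wnts, had 2 and 6 reads against 7 and 14, a ratio of 2.40 (1.02 to 6.25). The opposite-strand gene PRSS23, with 250 to 425 reads per library, covers 18.9% of FZD4's exons. FZD3, a polarity receptor, had 5 and 7 reads against 4 and 4.

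SFRP4 had 2 and 5 reads in the controls against 6 and 3, WNT10B 1 and 0 against 1 and 3, WNT11 1 and 0 against 1 and 1, and DKK2 a lone read in TGF-β1 replicate 2. WNT2, WNT4, WNT6, WNT7A, WNT10A, ROR2, SFRP1 and DKK4 had 0 reads in all 4 libraries. The 3 reads that a count of 0 allows over all libraries would correspond to 0.0304 RPKM for ROR2, the lowest limit of these 8, and to 0.198 RPKM for DKK4, the highest. For WNT4, a ligand needed for the embryonic mesenchyme to form tubules, the limit was 0.0391 RPKM. These limits and the intervals cover counting error only.

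**Figure D4:**
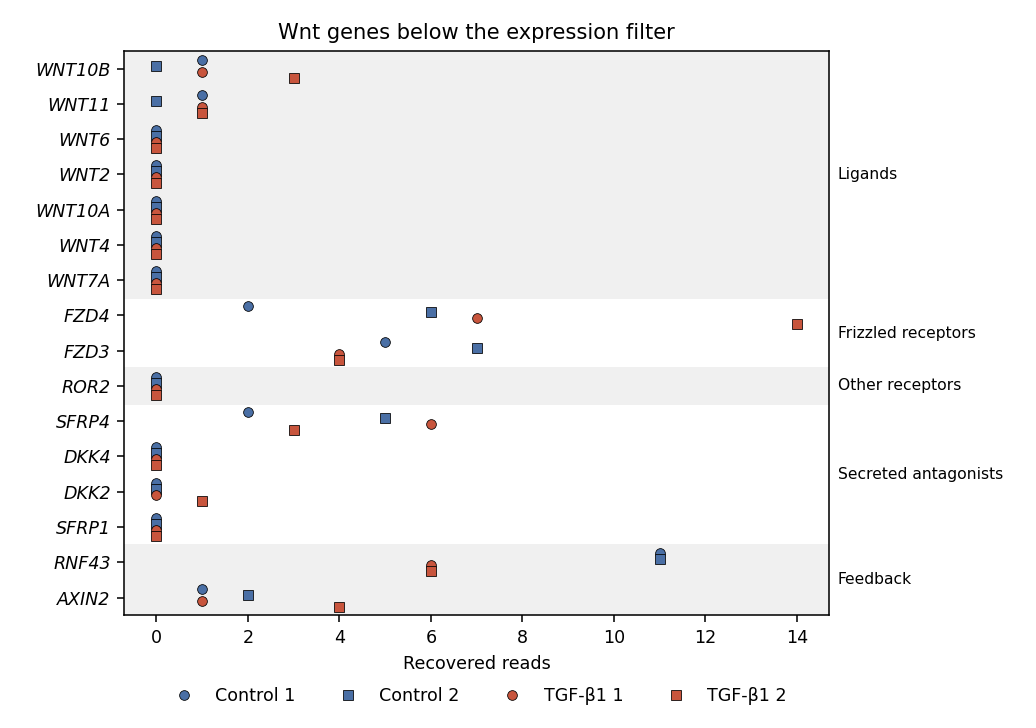
Reads recovered in each library for the 16 Wnt genes below the expression filter, by role, with blue for control, red for TGF-β1, circles for replicate 1 and squares for replicate 2. Of these genes 8 sit at 0 in all 4 libraries, and the highest value is 14 reads, of FZD4 in TGF-β1 replicate 2.

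Genes that release, relay or answer Wnt signals were counted in 7 lists chosen by function. In Wnt secretion PORCN, the acyltransferase that attaches the lipid to Wnt ligands, was at 3.18 and 3.99 RPKM in the controls and 10.3 and 9.63 RPKM with TGF-β1. The groups stood apart, and PORCN rose 2.77-fold (log2 fold change 1.36, limma adjusted p = 0.00964). WLS, the carrier of Wnt ligands to the surface, was not called (0.15, adjusted p = 0.735). All 5 R-spondins and LGR receptors in the table lay below the filter, with at most 22 reads in a library and 0 for LGR5 throughout. Of the other secreted antagonists and co-receptors 5 of 7 were tested. By limma 0 were called, where 9.12% of all genes tested were, and 5 genes are too few to read this count. Of the 5, 1 had an unadjusted p under 0.05. That gene was TRABD2B, a protease that inactivates Wnts, with a log2 fold change of 0.72 and an adjusted p of 0.181, and voom called it (0.00949). Its means were 0.487 RPKM in the controls and 1.13 RPKM with TGF-β1. TRABD2B thus passed the filter only through its TGF-β1 libraries, and these p-values are no support for a Wnt response.

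Inside the cell, 1 of 13 tested genes of the destruction complex and dishevelled list was called higher, or 7.69%, near the 6.12% of all genes. Voom called 3, or 23.1%, near the 20.3% of all genes. The gene was DVL1, which relays the signal from Frizzleds, at 10.3 and 10.9 RPKM in the controls and 16.0 and 17.2 RPKM with TGF-β1 (log2 fold change 0.62, limma adjusted p = 0.0209). Its call was lost without TGF-β1 replicate 1 (0.0669) or 2 (0.112) or control replicate 1 (0.0520). In the list of β-catenin and its nuclear partners 4 of 13 were called, or 30.8% against 9.12% of all genes. Of these 3 were higher and 1 lower, where 6.12% and 3.0% of all genes were. Voom called 8 of the 13, or 61.5% against 20.3%. The list had a median log2 fold change of 0.41 against 0.03 over all genes. TLE2, one of the 13, passed the filter only through its TGF-β1 libraries, with means of 0.230 RPKM in the controls and 0.787 RPKM with TGF-β1. It enters the tested count and the median, so these shares and the median are no support for a Wnt response. The corepressor TLE1 fell from 48.8 to 28.3 RPKM, while its relative TLE3 rose from 9.17 to 17.4 RPKM (log2 fold changes -0.78 and 0.89, limma adjusted p = 0.00601 and 0.0115). PYGO2, a coactivator that binds β-catenin through BCL9, rose from 14.7 to 23.3 RPKM (0.65, adjusted p = 0.0191, lost without either TGF-β1 library), and BCL9L, a relative of BCL9, was the last of the 4 (0.51, adjusted p = 0.0221). Without the variance trend 0 of the 13 were called, and BCL9L lost its call also without TGF-β1 replicate 2 (0.0941) or control replicate 2 (0.0523) and with scaling by total reads (0.0649) or quantiles (0.0710). CTNNB1, which encodes β-catenin, was at 25.4 and 29.5 RPKM against 36.3 and 36.6 RPKM and was not called (adjusted p = 0.0605).

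Among 8 tested genes of the β-catenin target list 4 were called, all of them higher, where 9.12% of all genes were called and 6.12% called higher. The 8 had a median log2 fold change of 1.22 against 0.03 over all genes, and voom called 7 of them, against 20.3% of all genes. The list leaves out DKK1, ZNRF3, AXIN2 and RNF43, which are also β-catenin targets and were counted among the members. Of these, DKK1 was called lower (log2 fold change -1.17), ZNRF3 was not called (0.09), and AXIN2 and RNF43 were not tested. The direction of the calls and the median therefore hold for this choice of list only. CCND1, which encodes cyclin D1, rose 4.26-fold from 3.17 to 13.5 RPKM (log2 fold change 1.93, limma adjusted p = 0.00280). BAMBI, a decoy receptor of the TGF-β family, rose 4.35-fold from 2.01 to 8.75 RPKM (1.88, adjusted p = 0.00496), and TNFRSF19 rose 3.98-fold from 3.17 to 12.6 RPKM (1.84, adjusted p = 0.00676). SOX9, a transcription factor of tubule repair, was the other called gene of the list, at 0.262 and 0.838 RPKM in the controls (3 and 15 reads) against 6.82 and 7.58 RPKM (2.93, adjusted p = 0.00932). Its 13.1-fold ratio of means was 8.59 without control replicate 1 and 27.4 without control replicate 2. MYC, CD44, TCF7 and SP5 were not called, with log2 fold changes of -0.15, 0.44, 0.60 and -0.90. LGR5, NKD1, NOTUM and LEF1, much used as readouts of the pathway, had 0 to 6 reads per library. Several of the called genes are also regulated by TGF-β itself, and which pathway moved them was not tested.

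Of 13 tested genes of planar polarity and β-catenin-independent signalling 2 were called, both higher, or 15.4% against 9.12% of all genes called, and voom called 4, or 30.8% against 20.3%. PRICKLE2, a core polarity protein, was at 1.11 and 1.03 RPKM in the controls and 2.91 and 3.62 RPKM with TGF-β1, and PTK7, a pseudokinase that acts with ROR and Frizzled receptors, at 3.71 and 2.72 RPKM against 6.47 and 6.79 RPKM. Neither overlapped between the groups (log2 fold changes 1.26 and 0.95, limma adjusted p = 0.0275 and 0.0371). PRICKLE2 lost its call whichever library was left out (0.0611 to 0.151), and PTK7 without TGF-β1 replicate 1 (0.109), TGF-β1 replicate 2 (0.140) or control replicate 2 (0.0640). With no expression filter neither was called (0.0713 and 0.0677). The list had a median log2 fold change of 0.15. DACT3, one of the 13, passed the filter only through its TGF-β1 libraries, with means of 0.379 RPKM in the controls and 0.680 RPKM with TGF-β1. It enters the tested count and the median, so the shares and the median are no support for a Wnt response. Of the 13, 11 were not called. Among these, fold changes ran up to the 1.56 of DACT1, an intracellular modulator of dishevelled, at 0.887 and 0.308 RPKM in the controls against 2.87 and 2.39 RPKM (limma adjusted p = 0.0525).

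**Figure D5:**
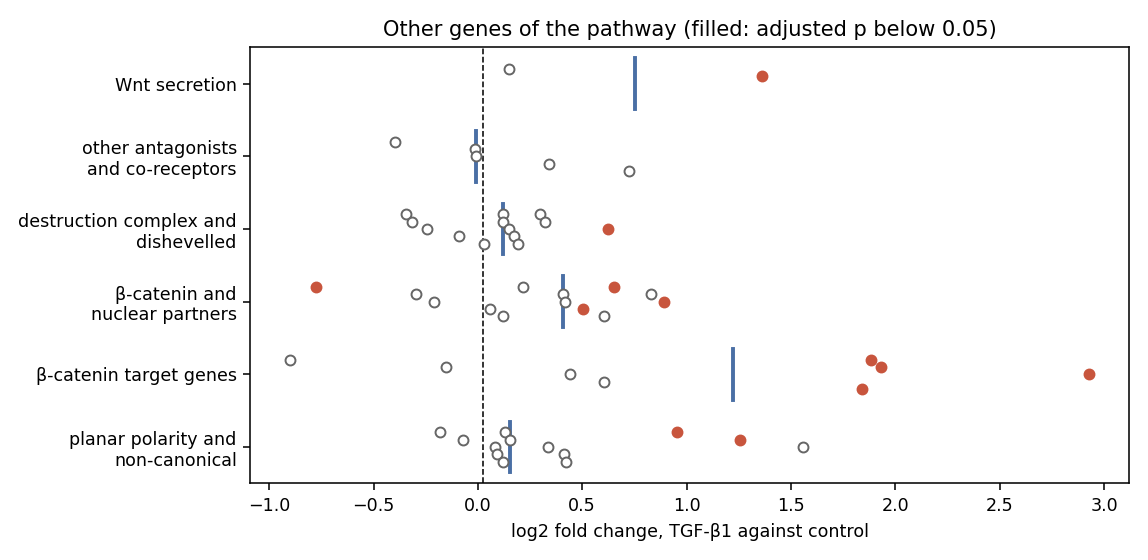
Log2 fold change, TGF-β1 against control, of the tested genes of 6 Wnt pathway lists, with a point per gene, filled where the adjusted p passed 0.05, a blue bar at each list's median and a dashed line at the median of all genes, 0.03. The target list, which leaves out the members DKK1 and ZNRF3, has the highest median, 1.22. Its filled points are CCND1, BAMBI, TNFRSF19 and SOX9.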

How the data were processed

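Total RNA of 4 HK-2 libraries was analysed, 2 per group as their titles say. The deposited table gives RPKM for 25609 genes under versioned Ensembl identifiers. Tools listed in the submitters' processing notes are STAR 2.7.1a, bcl2fastq 2.20.0.422 and DESeq2, with the build hg38. How the authors counted strands, computed RPKM and chose the annotation release was not given in the sources used here. Symbols came from a table of gene names that held 25312 identifiers, and positions, gene types and exon lengths from GENCODE 29 on hg38, where 23853 had the same version.

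Multiplied by exon length, the RPKM values of each library were whole reads plus 0.5, times a library constant, for 100% of same-version genes (tolerance 0.01 read). Reads were recovered for 25489 genes, with the length inferred from the values for 1283. They gave the counting intervals (exact Clopper-Pearson) and the voom alternative.

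RPKM as deposited was tested with limma 3.58.1 in R 4.3.3 (lmFit, eBayes with a variance trend) on log2(RPKM + 0.5), for the 16590 genes whose mean RPKM reached 0.5. P-values were adjusted by Benjamini-Hochberg over these genes and called below 0.05. Values with ± are means and SDs of RPKM, and folds are ratios of such means. The procedure was tested on simulated data, where it missed many changed genes and more of its calls were false than the nominal share, so calls near the threshold are weak. The 14 alternatives varied the filter, pseudocount, scaling, variance trend, replicate block, test and libraries.

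Named in full were each called member and, in each role, the 3 tested members of highest RPKM. From each pathway list the 3 called genes with the smallest p were named, or the 1 with the smallest p where none was called. BCL9L, SOX9 and uncalled list genes other than TRABD2B were named after their values were seen. A further gene of the label check is not reported here. The members and lists were chosen with earlier results of these data known.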

Additional observations from a re-analysis of the deposited data

How the results depend on the processing

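Several of the 14 alternatives moved a count by more than 1.5 times. The number of all genes called, 1513, was 977 with no expression filter, 424 without the variance trend, 3356 with voom on recovered reads, and 574 to 1138 when a library was left out (TGF-β1 replicate 2 left out gave 574, TGF-β1 replicate 1 gave 739, and control replicate 1 gave 999). Genes called higher, 1015, numbered 2002 with voom, 280 without the variance trend and 654 with scaling by total reads, and 395 to 842 when a library was left out. The number of Wnt genes called, 7, was 4 without the variance trend, 11 with voom, and 3 to 6 when a library was left out, with 3 without either TGF-β1 library. Wnt genes called higher, 4, numbered 2 with a minimum mean RPKM of 2, 2 with no filter, and 1 to 4 when a library was left out, with 1 without either TGF-β1 library. Wnt genes called lower, 3, numbered 1 without the variance trend, 5 with scaling by total reads, 6 with voom, and 2 when any library was left out. In the pathway lists, voom called 7 target genes in place of 4, 8 nuclear partners in place of 4, 4 polarity genes in place of 2 and 3 of the destruction complex list in place of 1. The polarity list fell to 0 calls with no filter and without TGF-β1 replicate 1, TGF-β1 replicate 2 or control replicate 2, and to 1 without the variance trend or with scaling by total reads. The destruction complex list had 0 calls without the variance trend and without either TGF-β1 library or control replicate 1, and nuclear partners had 0 without the trend and 2 without TGF-β1 replicate 2. A stricter filter tests fewer genes, and leaving out a library leaves a group with 1 library that is assumed to vary like the other group. The cause of the other shifts was not tested.

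No called Wnt gene changed direction under any of the 14 alternatives in which it was tested. Of the uncalled, log2 fold changes changed sign under median-of-ratios scaling for AXIN1 (-0.0226) and WNT3 (-0.0077), under quantile normalisation for AXIN1 (-0.0138), and with scaling by total reads for AXIN1 (-0.15), FZD8 (-0.069), LRP6 (-0.0867), WNT3 (-0.0929) and ZNRF3 (-0.0726). With a library left out, values ran from -0.091 to 0.13 for AXIN1, -0.27 to 0.0499 for DKK3, -0.17 to 0.25 for FZD8, -0.32 to 0.068 for FZD9 and -0.14 to 0.17 for WNT3.

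With the replicate number as a block, 1344 of all genes and 7 Wnt genes were called, and of the pathway genes named PTK7 lost its call (adjusted p = 0.0524, limma). Deviations of same-numbered libraries from their group means had a correlation of 0.026, and the labels do not say that the numbers pair samples.

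Depth limits the weak genes: 16 of 38 Wnt genes were too low to test, and a change in AXIN2, RNF43 or WNT11 could not be measured with useful precision. With 2 libraries per group the spread is estimated mostly from other genes of like level.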
